A study of Mus musculus with 11 samples.

Results

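The genes described here are 6 genes of mast cells and Hdc, the gene of histidine decarboxylase, which forms histamine. The 6 are the tryptase genes Tpsab1 and Tpsb2, the chymase genes Cma1 and Mcpt4, the carboxypeptidase gene Cpa3, and Fcer1a, the gene of the IgE-binding chain of the high-affinity IgE receptor. Every probe annotated to 1 of these 7 genes was taken, which gave 12 probes of the 45281 on the array, and 7 genes of the 10778 with a named probe. All 12 probes were detected on at least 2 arrays. The question was whether Hdc follows the mast cell genes from array to array. Hdc had been picked out by its difference between doxorubicin and PBS in WT hosts, so values from that comparison, and from comparisons that reuse its doxorubicin arrays, are given as description.

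The study profiled total RNA of subcutaneous MCA fibrosarcomas grown in C57BL/6 mice of 10 to 12 weeks on Illumina bead arrays. When the tumour surface had reached 25 to 45 mm2, mice received 2.9 mg/kg doxorubicin (DX, an anthracycline that damages DNA) in 50 µL PBS into the tumour, and tumours were taken 2 days later. KO hosts were FPR1-/-, that is without formyl peptide receptor 1, a chemoattractant receptor of myeloid cells. There were 2 arrays from KO hosts given DX (KO DX), 3 from KO hosts given PBS (KO PBS), 3 from WT hosts given DX (WT DX) and 3 from WT hosts given PBS (WT PBS). The genotype is that of the host, and the labels do not say that the injected tumour cells differed. The tumour number in the source names rises by 1 from sample to sample and was read as a filled-down label of a single line. No probe was named Fpr1, so the deletion itself was not analysed here. The labels call the arrays of a group replicates without naming separate animals, so a p-value measures the spread between these samples.

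The arrays detected 16169 to 18221 probes each (35.7% to 40.2%), with a median intensity of 151 to 169 except on chip 2, which held KO PBS 2 (118) and WT PBS 1 (110). Arrays of a group correlated at 0.974 to 0.992 after normalization, over the 20433 probes detected on 2 or more arrays. Eif2s3y, a gene of the Y chromosome, was detected on WT DX 2 (intensity 489) and WT PBS 3 (512) and on no other array, where its intensity was at most 157. The mouse sex is not given in the labels used here. Levels below are log2 values after background correction and quantile normalization, and a difference of 1 on that scale is a doubling.

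Mast cells are tissue-resident granulocytes that store histamine, heparin and proteases in granules and release them when antigen crosslinks IgE on their surface receptor. Tryptases and chymases are serine proteases of the granule, and carboxypeptidase A3 trims peptides from their C-terminal end. Histidine decarboxylase makes the granule's histamine, but neutrophils, basophils and immature myeloid cells also express Hdc in the mouse.

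The stretches upstream of 3 of the genes are shown because the chymase genes, Cpa3 and Fcer1a moved closely together over the arrays and Hdc did so less. They come from RefSeq (GRCm38.p6), are written 5′ to 3′ and cover the 250 bases before each annotated start. Capitals mark the letters GATAA or its reverse complement, a form of the site recognised by GATA factors such as GATA2 of mast cells.
Cpa3, chr3:20242182-20242431, minus strand: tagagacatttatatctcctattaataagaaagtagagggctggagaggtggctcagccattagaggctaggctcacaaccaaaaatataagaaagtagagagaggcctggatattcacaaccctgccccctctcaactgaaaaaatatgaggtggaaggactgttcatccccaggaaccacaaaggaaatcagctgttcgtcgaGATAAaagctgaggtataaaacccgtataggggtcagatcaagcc
Fcer1a, chr1:173227230-173227479, minus strand: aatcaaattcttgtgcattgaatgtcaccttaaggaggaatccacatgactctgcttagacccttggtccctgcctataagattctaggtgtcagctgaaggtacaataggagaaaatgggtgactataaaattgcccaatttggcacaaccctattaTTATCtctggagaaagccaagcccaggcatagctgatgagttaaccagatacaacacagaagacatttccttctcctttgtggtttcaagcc
Hdc, chr2:126618679-126618928, minus strand: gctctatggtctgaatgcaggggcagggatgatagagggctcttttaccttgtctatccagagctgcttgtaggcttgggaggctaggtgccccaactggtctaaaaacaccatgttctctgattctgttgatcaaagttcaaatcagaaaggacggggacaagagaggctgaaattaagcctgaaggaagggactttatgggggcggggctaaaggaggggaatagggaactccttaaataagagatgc
Promoter windows of 300 bases (250 before and 50 after the start) were held for 5 of the 7 genes. GATAA was found on either strand in the windows of all 4 mast cell genes matched (Cma1, Mcpt4, Cpa3 and Fcer1a). Its first base was at -45 from the start in Cpa3 and -92 in Fcer1a. These letters are not in the window of Hdc. Of all 32851 windows of that length, 25.4% held GATAA. The site of GATA factors can also read GATAG, which was not searched, and the Hdc stretch shown holds GATAG in lower case. The E-box CANNTG, searched in the same way, was present in the windows of Cma1, Cpa3, Fcer1a and Hdc and in 72.3% of all windows. A match is a run of letters, and binding was not measured.

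**Figure D1:**
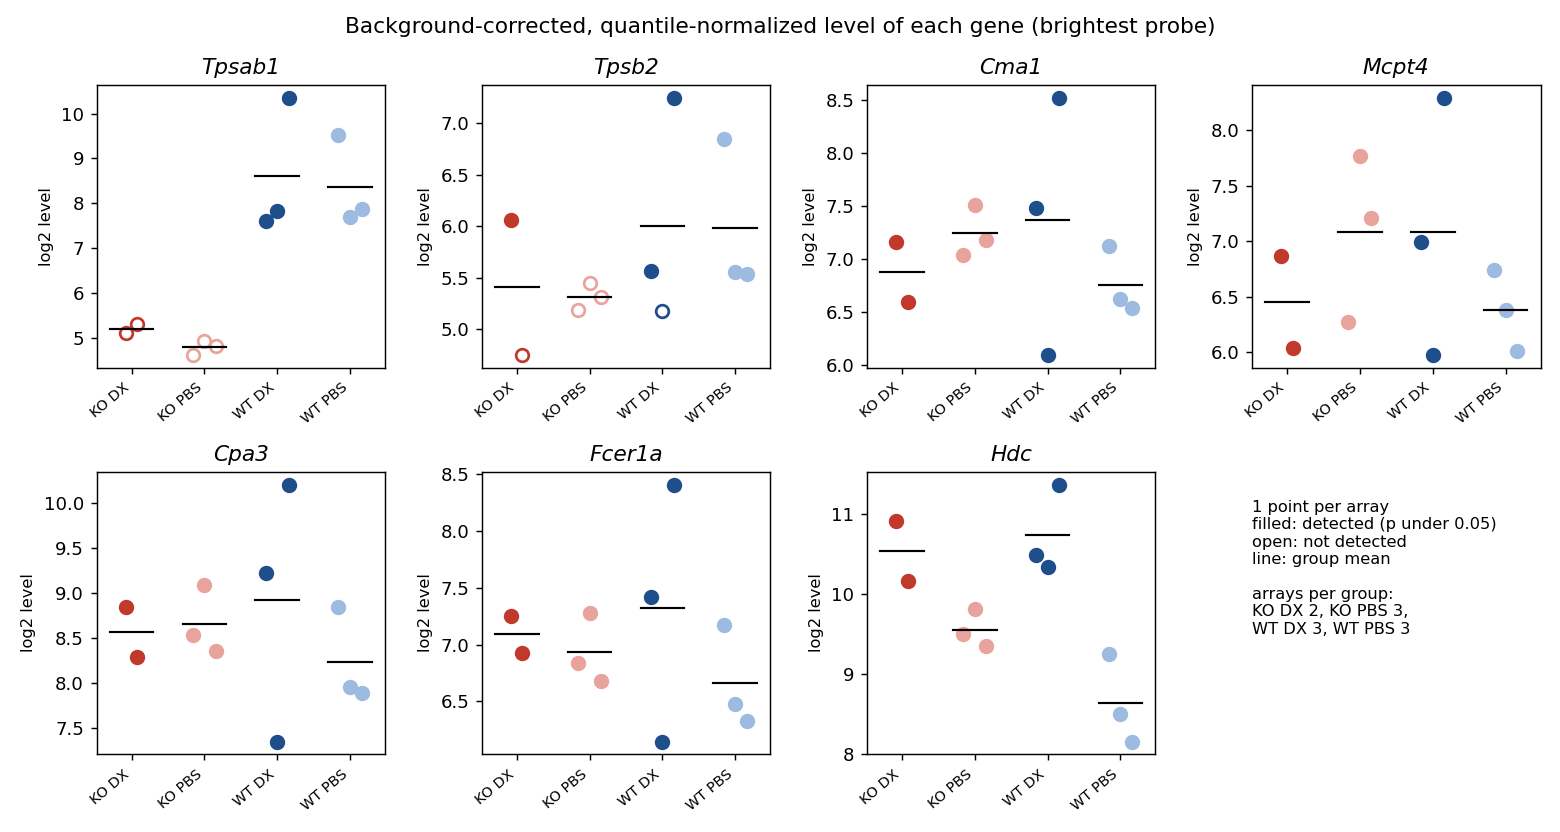
Level of the 7 genes on each array (log2, background-corrected and quantile-normalized, brightest probe of the gene, own scale per panel). Points are arrays in the order KO DX, KO PBS, WT DX and WT PBS, open points were not detected, and lines are group means. Hdc separated both PBS groups from both DX groups, Tpsab1 separated KO from WT hosts, and the other 5 genes spread most widely within WT DX.

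The tryptase gene Tpsab1 was the only one of the 7 genes with a level that divided the hosts by genotype. It encodes mouse mast cell protease 7, which C57BL/6 mice are known to lack because of a splice defect, and the annotation lists it as a transcribed pseudogene on chromosome 17. Its 1 probe had an intensity of 159 and 186 in KO DX and 149, 118 and 151 in KO PBS, and was not detected on any of these 5 arrays. It had 328, 354 and 1214 in WT DX and 371, 461 and 372 in WT PBS, and was detected on all 6. After normalization the levels were 5.10 and 5.30 in KO DX, 4.62, 4.94 and 4.81 in KO PBS, 7.60, 7.84 and 10.35 in WT DX, and 9.53, 7.70 and 7.88 in WT PBS. Every KO array lay below every WT array, by a gap of 2.30 between the highest KO and the lowest WT level. The high level of WT PBS 1 stands on the dimmer chip 2, where its intensity was like that of the other WT PBS arrays.

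**Figure D2:**
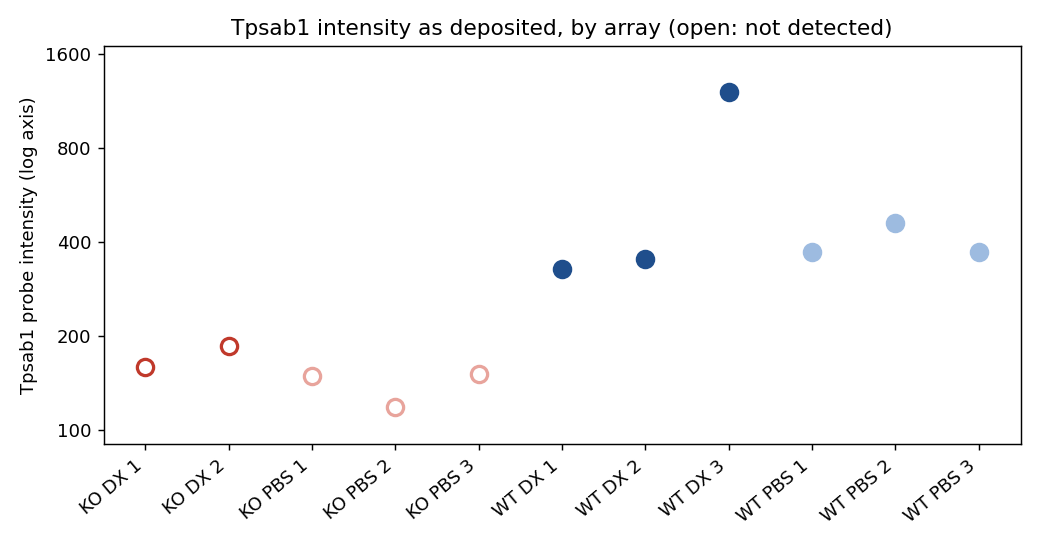
Intensity of the Tpsab1 probe on each array as deposited, on a log axis, KO arrays left of WT arrays. Open points were not detected (detection p of 0.05 or more), and the 5 KO arrays sit at 118 to 186 against 328 to 1214 on the 6 WT arrays.

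Because KO arrays gave only an upper bound, the genotype difference of Tpsab1 is a lower bound: WT was at least 7.76-fold higher than KO under PBS, and at least 9.76-fold higher under DX. Without WT PBS 1 the PBS bound was 5.19-fold, and without WT DX 3, the array of highest level, the DX bound was 5.31-fold. Under PBS the fitted difference KO minus WT was -3.58 ± 0.65 (SE, limma adjusted p = 0.206, n = 3 each), which did not pass the threshold. It passed with median scaling in place of quantile normalization, at -3.40, and without WT DX 3, and it was -1.55 without background correction. Of all genes, 4.48% had every KO PBS array below every WT PBS array, and over both treatments 0.471% (50 genes) had every KO array below every WT array and 0.329% every one above. Among those 50 genes Tpsab1 had the widest gap, and the next was 0.45 for Tcap, a muscle sarcomere gene. Within chips the PBS difference was -4.59 on chip 2 and -3.07 on chip 5. Under DX the fitted difference was -3.40, and it was -2.52 without WT DX 3 and -1.64 without background correction.

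Fpr1 lies on chromosome 17 as well, so genes beside Tpsab1 were read out, a choice made after its values were seen. In the 5 measured genes before it (Tmem204, Clcn7, BC003965, Gnptg, Tsr3) and the 4 after Tpsb2 (Sox8, Lmf1, Chtf18, Rpusd1), KO minus WT under PBS ran from -0.16 to 0.53. None passed, but Tpsab1 itself did not pass either, so that count cannot show whether neighbours differ. The largest difference was that of Clcn7, a chloride transporter gene, at 0.53 ± 0.20 (SE, limma adjusted p = 0.852). Among the 50 genes with every KO array below every WT array, Has1 and Ntn3 also lie on chromosome 17, with gaps of 0.14 and 0.045. Whether the genotypes differ in sequence at Tpsab1 was not tested, and with 1 probe a change of transcript and a change of the probed bases cannot be told apart.

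Tpsb2, the next measured gene after Tpsab1, encodes mouse mast cell protease 6, the tetrameric tryptase that C57BL/6 mice do make. Its level was 6.06 and 4.75 in KO DX, 5.18, 5.45 and 5.32 in KO PBS, 5.57, 5.18 and 7.25 in WT DX, and 6.85, 5.55 and 5.53 in WT PBS. The probe was dim: it was detected on 1 of 2 KO DX arrays, 0 of 3 KO PBS arrays, 2 of 3 WT DX arrays and 3 of 3 WT PBS arrays. All KO PBS arrays lay below all WT PBS arrays, as in 4.48% of all genes. WT was at least 1.48-fold higher, but the bound was 1.10-fold without WT PBS 1, which lay on the dimmer chip 2. The difference of -0.66 ± 0.53 did not pass (SE, limma adjusted p = 0.998, n = 3 each). Over the 11 arrays the tryptases correlated with each other at r = 0.72. That value is a description, and near-identical tryptase transcripts could share signal on a probe, which was not tested.

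Cma1, the gene of mast cell protease 5, had levels of 7.16 and 6.60 in KO DX, 7.04, 7.51 and 7.18 in KO PBS, 7.48, 6.10 and 8.52 in WT DX, and 7.12, 6.62 and 6.54 in WT PBS. Mcpt4, the gene of the chymase mast cell protease 4 of connective tissue mast cells, had 6.87 and 6.04 in KO DX, 6.27, 7.77 and 7.21 in KO PBS, 6.99, 5.97 and 8.29 in WT DX, and 6.74, 6.37 and 6.01 in WT PBS. Both were highest on WT DX 3 and lowest on WT DX 2, so the WT DX arrays spanned the whole range. Cpa3 had 8.84 and 8.28 in KO DX, 8.54, 9.09 and 8.35 in KO PBS, 9.22, 7.35 and 10.20 in WT DX, and 8.84, 7.95 and 7.89 in WT PBS. Its highest and lowest arrays were again both in WT DX.

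Fcer1a followed the chymases and Cpa3. It had 7.25 and 6.93 in KO DX, 6.84, 7.28 and 6.68 in KO PBS, 7.42, 6.15 and 8.41 in WT DX, and 7.17, 6.48 and 6.33 in WT PBS. The groups overlapped, and WT DX held both the highest and the lowest array. Where a gene had further probes, these correlated with its brightest probe over 11 arrays at r = 0.97 for Cma1, 0.98 and 0.62 for Cpa3, 0.78 for Fcer1a (detected on 2 of 11 arrays) and 0.96 for Hdc.

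Hdc had the widest separation by treatment of the 7 genes. Its level was 10.92 and 10.16 in KO DX, 9.51, 9.82 and 9.35 in KO PBS, 10.50, 10.34 and 11.37 in WT DX, and 9.25, 8.50 and 8.16 in WT PBS. Group means ran 10.74 in WT DX, 10.54 in KO DX, 9.56 in KO PBS and 8.64 in WT PBS. The DX groups overlapped each other, each DX group stood above the PBS group of its genotype, and KO PBS stood above WT PBS by a narrow margin (lowest 9.35 against highest 9.25).

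In WT hosts Hdc rose by 2.10 ± 0.33 under DX (SE, n = 3 each), and no other of the 7 genes passed the threshold. Of all genes 0.555% rose and 0.0659% fell. Every WT DX array was above every WT PBS array for 6.26% and below for 7.47%, but Hdc was chosen on this comparison, so nothing is read from that. The 6 mast cell genes were all above 0, with a median of 0.64, where 45.0% of all genes were above 0 and the median of all genes was -0.03. Mcpt4 differed by 0.71 ± 0.53, Cpa3 by 0.69 ± 0.57, Fcer1a by 0.67 ± 0.45 and Cma1 by 0.61 ± 0.47, while Tpsab1 differed by 0.23 ± 0.65 and Tpsb2 by 0.02 ± 0.53. These values rest on single arrays: without WT DX 3 they were 0.11 for Mcpt4, 0.05 for Cpa3, 0.12 for Fcer1a and 0.03 for Cma1, and without WT DX 2 they were 1.27, 1.48, 1.25 and 1.24 in the same order. Without WT DX 3 the tryptases were below 0, at -0.65 for Tpsab1 and -0.61 for Tpsb2. Hdc stayed between 1.78 and 2.41 with each array left out, but its call ended when any of KO PBS 3, WT PBS 2, WT PBS 3, WT DX 1 and WT DX 3 was removed.

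Within chip 5, where WT DX 3 and WT PBS 3 shared a chip, the difference was 3.22 for Hdc, 2.32 for Cpa3, 2.28 for Mcpt4, 2.08 for Fcer1a, 1.98 for Cma1, 2.48 for Tpsab1 and 1.72 for Tpsb2. With the chip as a fixed block the values were 2.67 for Hdc, 2.11 for Mcpt4, 1.85 for Cpa3, 1.62 for Fcer1a and 1.60 for Cma1. That fit takes nothing from WT DX 2, which was alone on its chip and lowest in Mcpt4, Cpa3, Fcer1a and Cma1. In a bulk tumour, fewer cells of a type and less RNA per cell cannot be told apart.

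In KO hosts no gene of the 7 passed the threshold after DX, as none did among all genes (0% rising, 0% falling, 569 with an unadjusted p under 0.05 in limma). Hdc was higher on both KO DX arrays than on all 3 KO PBS arrays, by 0.98 ± 0.37 (SE, limma adjusted p = 0.805), where 13.3% of all genes had every KO DX array above every KO PBS array and 13.7% had every one below. That difference was 0.61 without KO DX 1 and 1.36 without KO DX 2. Cpa3 differed by -0.10 ± 0.64, a sign that turned under several other settings, and Fcer1a by 0.16 ± 0.51. Cma1 differed by -0.36 ± 0.52 and Mcpt4 by -0.63 ± 0.59, with adjusted p of 0.986 and 0.979. Of the 4 mast cell genes detected in both groups, 1 lay above and 3 lay below 0, where 48.7% of all genes lay above 0. Neither tryptase was detected in KO PBS, so their fitted differences in KO hosts are not interpreted. KO DX and KO PBS arrays never shared a chip, and the chip and DX in KO hosts could be separated only through WT arrays.

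Between genotypes under PBS, Hdc was 0.92 ± 0.33 higher in KO (SE, limma adjusted p = 0.852), with every KO PBS array above every WT PBS array, as in 4.9% of all genes. This did not pass the threshold, which 0.00941% of all genes did in the rising direction, namely Cxcl1, a neutrophil chemoattractant gene. Cma1, Mcpt4, Cpa3 and Fcer1a differed by 0.27 to 0.71 (adjusted p = 0.998 each). On chips 2 and 5 the Hdc difference was 0.57 and 1.19. Under DX, KO minus WT was -0.20 ± 0.37 for Hdc. All 6 mast cell genes lay below 0, with a median of -0.54. Of all genes 53.3% lay above 0, with a median of 0.02. The 6 include Tpsab1, not detected in KO DX, and Tpsb2, detected on 1 of 2 KO DX arrays. For 15.4% of all genes every KO DX array was above every WT DX array, and for 11.7% every one was below. Without WT DX 3 the values of Cma1, Cpa3 and Fcer1a turned to 0.09, 0.28 and 0.31, Tpsb2 turned to 0.06 without KO DX 2, and Hdc to 0.04 with median scaling and 0.18 without KO DX 2. With the chip as a fixed block the values were further below 0, at -2.03 for Mcpt4, -1.34 for Cma1, -1.25 for Cpa3 and -1.01 for Fcer1a, and there WT PBS 2 alone ties KO DX to the other groups. The difference of the DX responses, KO minus WT, was -1.12 ± 0.50 for Hdc and was not called, as no gene passed the adjusted threshold (0%, 498 with an unadjusted p under 0.05 in limma). The WT comparison, the DX comparison between genotypes and this difference share the WT DX arrays.

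**Figure D3:**
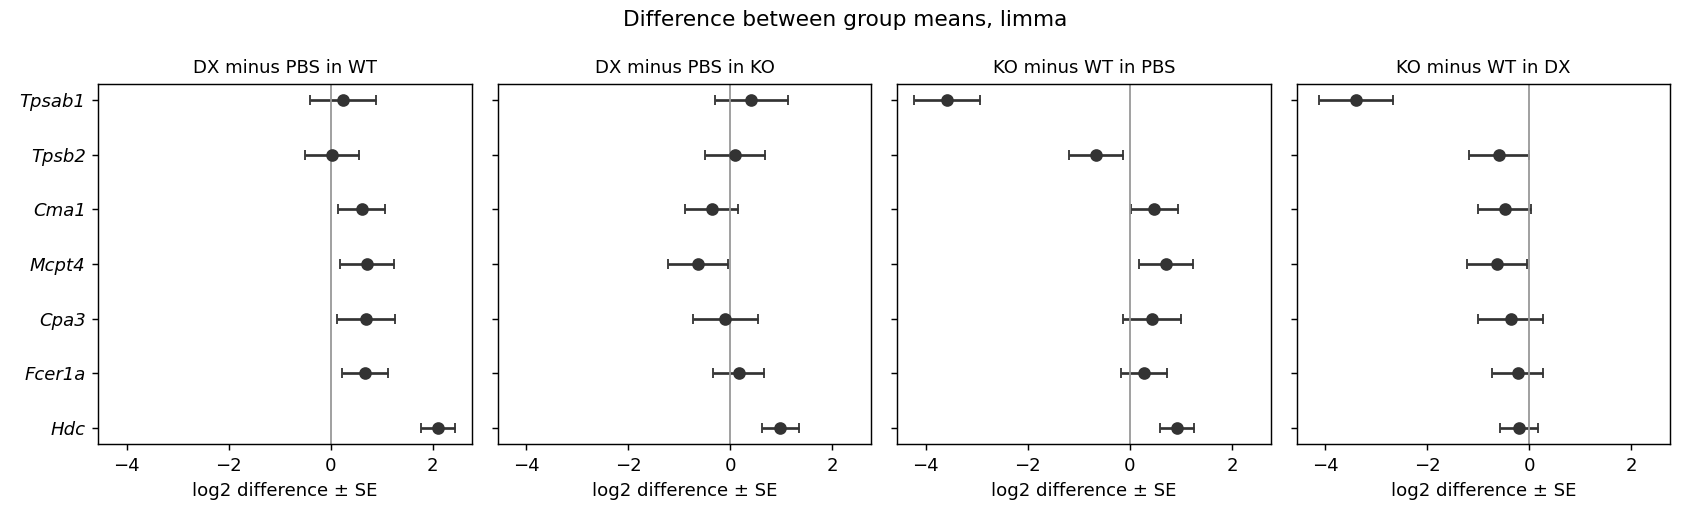
Fitted log2 difference ± SE (limma, all 11 arrays) of each gene in 4 comparisons. Tpsab1 stood alone at -3.58 and -3.40 between genotypes, where its KO level is an upper bound (as is that of Tpsb2 in KO PBS), and Hdc at 2.10 in WT and 0.98 in KO hosts between treatments. Neither tryptase was detected in KO PBS, so their points for DX minus PBS in KO are not interpreted.

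Array by array, Hdc followed the mast cell genes within groups more than over the whole series. Over all 11 arrays Hdc correlated with the mean of the 6 mast cell genes at r = 0.44 (Spearman's rho 0.25), at 0.017 without WT DX 3 alone, and at 0.18 without the 2 arrays farthest from the median, WT DX 3 and WT PBS 1. Without Tpsab1 in the mean it was r = 0.56 (rho 0.38), 0.29 without WT DX 3 and 0.73 without WT DX 2. Without both of these arrays, the 2 farthest from the median of that mean, it was 0.57. The value over all arrays thus moved in both directions with single arrays. The points share their arrays, depth and normalization, and the genes were picked with this pattern in view, so these values are descriptions. Ranked among 10622 other genes by r with Hdc, Fcer1a was 475th (0.68), Cpa3 854th (0.59), Cma1 1076th (0.53), Mcpt4 1243rd (0.50), Tpsb2 2391st (0.31) and Tpsab1 4201st (0.07).

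The departures were on named arrays. WT DX 2 ranked 4th of 11 in Hdc, 9th in the mean of the 6 and 11th in the mean without Tpsab1. KO DX 2 ranked 5th in Hdc, 11th in the mean of the 6 and 9th without Tpsab1. WT PBS 1 ranked 9th in Hdc, 2nd in the mean of the 6 and 3rd without Tpsab1, while WT DX 3 was first in all 3. After each group's mean was removed, Hdc and the 6 genes correlated at 0.88, and at 0.84 without WT DX 3. Arrays that stood high within their group in mast cell genes thus also stood high in Hdc. This was not particular to mast cell genes. On the same measure the means of neutrophil, adipocyte and keratinocyte genes gave 0.94, 0.86 and 0.76 with Hdc. Means of muscle and fibroblast genes gave 0.50 and 0.23. After each chip's mean was removed (10 arrays), the value was 0.66 for the 6 mast cell genes and 0.88 for their mean without Tpsab1. On that measure the neutrophil mean gave 0.99.

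The mast cell genes other than the tryptases moved closely together: Cpa3 and Fcer1a correlated at 0.98 (0.97 without WT DX 3), Cma1 and Cpa3 at 0.97, Cma1 and Fcer1a at 0.94, Cma1 and Mcpt4 at 0.93, Mcpt4 and Cpa3 at 0.86, and Mcpt4 and Fcer1a at 0.83. A list of 37 other mast cell genes, of which 18 were measured, had a mean that correlated with the mean of the 5 members without Tpsab1 at 0.97. The 10 genes most like the mean of the 6 by r over 11 arrays were Esyt1 (0.96), Igf1 (0.96), Klrd1, Klre1, Gja5, Ticam2, Cbr3, Klra3, Grrp1 and Frmd7 (0.90). With Tpsab1 left out, Grrp1 (0.98), the chymase gene Cma2 (0.97) and Gmfg (0.97) came first.

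The mean of 13 neutrophil genes gave a higher value with Hdc, r = 0.98 (rho 0.99) over 11 arrays and 0.94 after removal of group means. The list was put together with earlier results known, and holds genes such as Hcar2 that had risen with DX, so the value is again a description. S100a8 and S100a9, the calprotectin subunits of neutrophils, gave 0.94 and 0.93 over 11 arrays, and the mean of 6 basophil genes gave 0.87. After removal of group means these were 0.81, 0.55 and 0.80, each below the 0.88 of the 6 mast cell genes. Over the 11 arrays means of other tissues moved with Hdc as well, at 0.78 for 9 keratinocyte genes and 0.73 for 6 adipocyte genes. Their part in the result was not tested. The 10 genes most like Hdc were Hcar2 (a niacin receptor of myeloid cells, 0.97), Osm (the cytokine oncostatin M, 0.96), Ppp1r3b, Ms4a6d, Gapt, F10 (coagulation factor X), Csf2 (a granulocyte-macrophage growth factor), Zfp36, Mxd1 and Slpi (a protease inhibitor of neutrophils, 0.95).

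**Figure D4:**
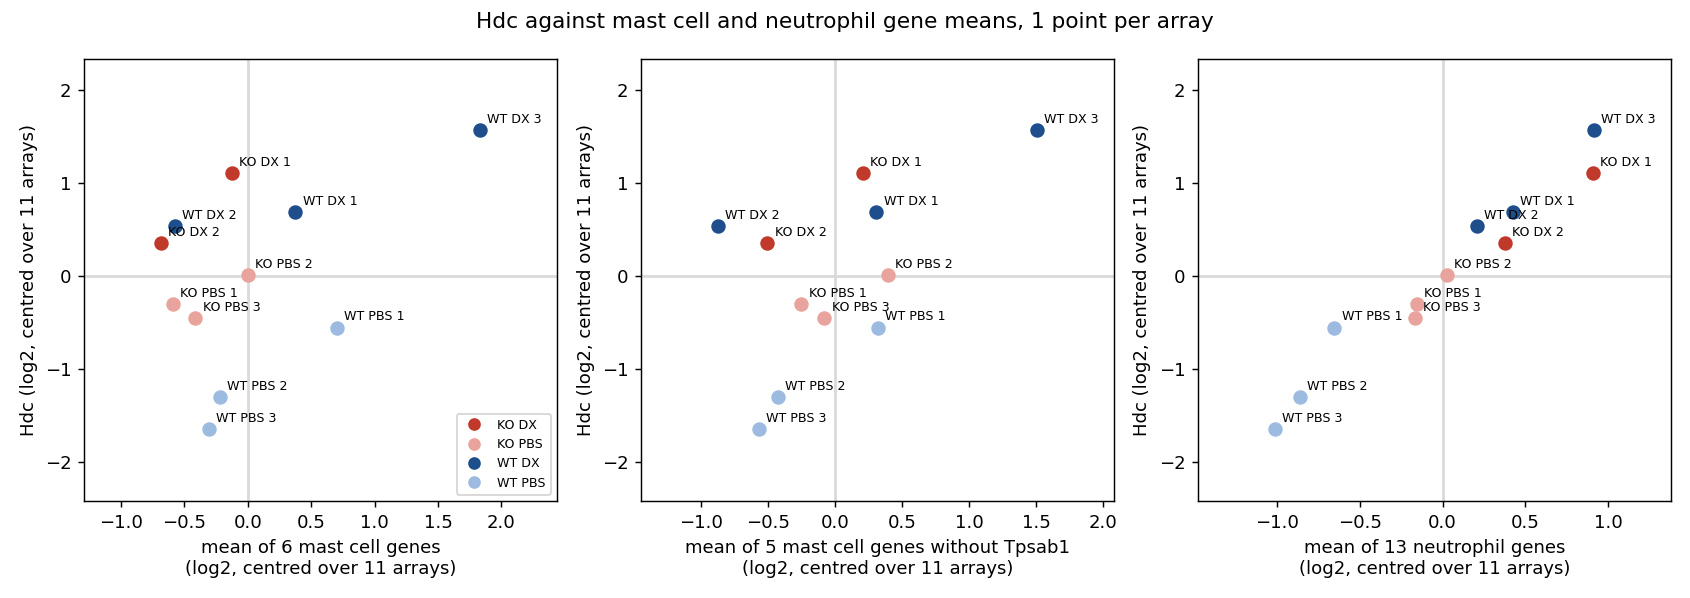
Hdc level against the mean of the 6 mast cell genes, of the 5 without Tpsab1, and of 13 neutrophil genes, each centred over the 11 arrays (log2), 1 point per array coloured by group. WT DX 3 is top right in all 3 panels, WT DX 2 is left in the mast cell panels, and the neutrophil panel is close to a line (r = 0.98).

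Of the other mast cell genes, none of the 18 measured rose or fell in any of the 5 comparisons, with a median of 0.29 for DX minus PBS in WT. Kit, the stem cell factor receptor, was detected on all 11 arrays and differed by 0.02 ± 0.31, Gata2 (a mast cell transcription factor) by 0.0014 ± 0.13 and Fcer1g (the receptor's signalling chain) by 0.23 ± 0.15. The smallest p were those of Srgn (the granule proteoglycan serglycin, 0.84 ± 0.20, limma adjusted p = 0.0997), Ltc4s (leukotriene C4 synthase, 0.75 ± 0.20, 0.159), Alox5ap (0.56 ± 0.19) and Ndst2 (0.46 ± 0.20), and none of these passed. Every WT DX array was above every WT PBS array for these 4 and for no other of the 18 (22.2%), beside 6.26% of all genes, and the 4 were picked for their small p. Ms4a2, the receptor's beta chain, was not among the measured genes.

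Of 13 measured genes of IgE receptor signalling, none passed in any comparison, with a median of 0.30 in WT. Btk (a kinase downstream of the receptor) differed by 0.76 ± 0.22 (limma adjusted p = 0.19), Pik3cd (a PI3-kinase subunit) by 0.75 ± 0.19, Ptpn6 by 0.39 ± 0.22 and Lcp2 by 0.30 ± 0.17. Of the 10 listed genes of histamine handling 3 were measured and none passed: Hrh2, a histamine receptor, differed by 0.04 ± 0.25 and Maob by 0.42 ± 0.38. Aoc1, the gene of the histamine-degrading diamine oxidase, was detected on 0 of 3 WT DX arrays and 1 of 3 WT PBS arrays, and WT PBS was at least 1.05-fold higher. Hnmt and Slc18a2 were not among the measured genes.

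Basophils also bear Fcer1a and can form histamine. Of the 6 measured genes of the basophil list 1 rose in WT, beside 0.555% of all genes. It was Ccl9, a chemokine gene detected on all 11 arrays, by 1.26 ± 0.20 (limma adjusted p = 0.0264). Every WT DX array was above every WT PBS array for 4 of the 6 (66.7%), beside 6.26% of all genes. Whether the listed genes come from basophils in these tumours was not tested. Mcpt8, the defining basophil protease, was named for that role after its values were seen. It was detected on 2 of 3 WT DX arrays and 0 of 3 WT PBS arrays, so WT DX was at least 1.43-fold higher, which did not pass (limma adjusted p = 0.187). Of 13 neutrophil genes 6 rose in WT (median 1.16), beside 0.555% of all genes. Among them were S100a8, by 2.72 ± 0.25, and S100a9, by 3.17 ± 0.25. None of the 13 rose in KO (median 0.81). The basophil and neutrophil lists were put together with earlier results known, so the counts and calls in WT are descriptions. The mean of the neutrophil genes, centred over arrays, was 0.38 to 0.91 in KO DX, -0.17 to 0.03 in KO PBS, 0.21 to 0.92 in WT DX and -1.02 to -0.65 in WT PBS. As for Hdc, both DX groups stood above KO PBS, and KO PBS stood above WT PBS, where S100a8 differed by 1.79 ± 0.25 (adjusted p = 0.0604).

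Other tissue in the samples moved with WT DX. Of 16 muscle genes 4 rose in WT, beside 0.555% of all genes. The lists of this paragraph were also put together with earlier results known, so such counts are descriptions. The centred mean of the muscle genes was -0.82 to -0.25 in KO DX, -0.35 to -0.33 in KO PBS, 0.46 to 1.44 in WT DX and -0.56 to 0.03 in WT PBS. None of 9 keratinocyte genes rose, with a mean of -0.0048 to 0.24 in KO DX, -0.53 to 0.08 in KO PBS, -0.05 to 1.48 in WT DX and -0.48 to -0.22 in WT PBS. The 1.48 is that of WT DX 3, the array highest in all 6 mast cell genes and in Hdc. In WT none of 6 adipocyte or 12 fibroblast genes passed, nor did the 1 eosinophil gene measured, and 2 of 12 macrophage genes rose. In the other 4 comparisons no gene of these lists passed. The part of these tissues in the mast cell values was not tested.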

How the data were processed

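Per the file headers, the first deposited table gives a linear intensity, not normalized, and a detection p-value for each probe and array. The second holds log2 values made by the authors, by steps not given in the sources used here, and Partek is the one tool that the submitters' processing notes name. There WT DX 2 and WT PBS 2 equal the mean of the other 2 arrays of their group for all 19215 probes (within 7e-05), so the intensities were used.

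With limma 3.58.1 (R 4.3.3), neqc (offset 16) corrected background and quantile normalized. Probes were kept if detected (p under 0.05) on 2 or more arrays (20433 probes). The brightest named probe stood for each of 10623 genes. Symbols came from the platform annotation, where 16496 probes had 1 symbol and 9 several, and 16479 were updated by Entrez number. A model of 4 group means over 11 arrays gave 5 contrasts, each adjusted by Benjamini and Hochberg over all genes (threshold 0.05). Where no array of a group detected a gene, a lower bound of the fold replaces the fold, with each array's lowest detected signal standing for a dimmer probe. The procedure was tested on simulated data. The number of arrays limits the precision.

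The members and lists were chosen with earlier results of these data known. Named were all members, list genes past the threshold (otherwise the 4 of smallest p in WT) of the mast cell, IgE, histamine and basophil lists, a fixed set (Kit, Ms4a2, Fcer1g, Gata2, Hnmt, Slc18a2, S100a8, S100a9), and the 10 genes most like Hdc or the mast cell mean. Mcpt8 and the neighbours of Tpsab1 lie outside this rule. The 11 arrays lay on 5 BeadChips, per the labels. Same-numbered replicates did not regularly deviate together (15 pairs, r = -0.29 to 0.30, 4 of them above 0.1), so the numbers were not taken as pairs. Alternatives varied the background correction, scaling, filter, probe rule, groups fitted, chip and replicate blocks and arrays left out. Added after seeing the data were the authors' table without its averaged columns, means without tryptases, and leaving out both arrays that detected Eif2s3y.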

Additional observations from a re-analysis of the deposited data

How the results depend on the processing

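The number of the 7 genes past the threshold for DX minus PBS in WT, 1 as reported (Hdc), was 0 with only the groups of the contrast, 0 without the 2 arrays with Eif2s3y signal, 2 with the chip as a fixed block (Hdc and Mcpt4), and 0 to 1 with each array left out. In KO it was 0 as reported. Between genotypes under PBS it was 0 as reported and 1 with median scaling, and 0 to 1 with arrays left out (1 without WT DX 3). Under DX it was 0 as reported and 1 with median scaling. With the authors' table without its 2 averaged columns, the counts were 5 in WT, 2 in KO, 1 between genotypes under PBS, 5 under DX and 5 for the difference of the responses. That table was run only in this form, and its median SD within groups was 0.073, against 0.23 in the values used here. The cause of these changes was not tested. Of all genes, 66 passed in WT as reported, against 12 with only the groups of the contrast, 10 to 233 with arrays left out and 2795 in the authors' table. Passing there were also 3755 in KO, 433 and 4283 between genotypes under PBS and DX, and 4124 for the difference, against 0, 1, 0 and 0 as reported. Under DX between genotypes 0 to 38 passed with arrays left out, the most without WT DX 2.

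The correlation of Hdc with the mast cell mean, 0.44 as reported, was 0.72 in the authors' table, 0.88 for deviations from group means, 0.66 for deviations from chip means, 0.56 without Tpsab1, 0.59 without Tpsab1 and Tpsb2, and 0.017 (without WT DX 3) to 0.54 (without WT PBS 1) with arrays left out. With the neutrophil mean it stayed at 0.94 to 0.99.

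Cpa3 in KO, -0.10 as reported, turned to 0.099 with median scaling, 0.035 in the authors' table, 0.087 with the chip as a fixed block, 0.00976 as a random block and 0.00691 with the replicate block, and ran from -0.38 to 0.18 with arrays left out (0.12 without KO PBS 2). With arrays left out, the fitted value of Tpsb2 in KO ran from -0.57 (without KO DX 1) to 0.74, but KO PBS did not detect it. Fcer1a in KO ran from -0.0024 (without KO DX 1) to 0.33. The replicate block changed no call of a member, although the replicate numbers were not taken as pairs. Under the fixed chip block WT DX 2, alone on its chip, adds nothing, while WT PBS 2 alone ties KO DX to the other groups. Tpsab1 under PBS passed only with median scaling and without WT DX 3. Every difference rests on 2 or 3 arrays a group. The Tpsb2 probe was dim in all groups, and that of Tpsab1 was not above background on KO arrays.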
